A study of Mus musculus with 6 samples.

Results

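Wnt proteins are secreted glycoproteins that bind Frizzled receptors, and a small set of secreted proteins holds them back outside the cell. The 10 genes described here are 7 genes of secreted Wnt antagonists or related proteins (*Sfrp1*, *Sfrp2*, *Sfrp4*, *Frzb*, *Dkk2*, *Dkk3*, *Wif1*), the ligand gene *Wnt5a*, and *Axin2* and *Lef1*, whose transcripts are widely used to read out canonical Wnt signalling. They were chosen by name, with the WT and CharmeKO values of these libraries already known, so the differences between genotypes given for them are a description and not a test. Of the 10 names, 9 had a row among the 19446 genes of the table, and all 9 passed the filter of at least 10 reads in at least 2 libraries, which left 15948 genes for testing. *Lef1* passed it through WT 1 and WT 3 alone. *Wif1* had no row and was not analysed here.

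RNA-seq had been carried out on cardiac fibroblasts (CFs) grown out of explants of atrial tissue from 5-week-old mice, with 3 libraries from wild type (WT) mice and 3 from CharmeKO mice. CharmeKO mice carry an inserted polyadenylation signal in the locus of *Charme*, a long non-coding RNA of heart muscle cells, so the change is not limited to fibroblasts. Both groups shared the C57BL/6J background, the fibronectin coating, the serum-containing IMDM medium and an untreated, early-passage state, and the labels name no added Wnt ligand or inhibitor for either. The methods describe explants of tissue collected from several littermates and independently established primary lines, but the labels do not tie a library to an animal, so p-values measure the spread between these libraries.

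In the canonical pathway, a Wnt ligand bound to Frizzled and LRP5/6 stops the breakdown of beta-catenin, which then enters the nucleus and acts with TCF/LEF factors on target genes. SFRP proteins (the product of *Frzb* is SFRP3) resemble the Wnt-binding part of Frizzled and bind ligands, whereas DKK proteins of the classical kind bind the coreceptors LRP5/6. In the heart, Wnt signals take part in valve and epicardial development and in the response of fibroblasts to injury.

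The libraries held 38330019 to 46797446 reads assigned to genes. All 9 listed fibroblast markers were present, with summed levels of 20550 to 51820 CPM in WT, that is, counts relative to the library total, and 28730 to 43020 CPM in CharmeKO. The *Charme* locus could be checked through 1 feature without an Ensembl ID, taken by inference as the *Charme* entry, with read counts of 5, 15 and 11 (WT 1 to 3) and of 0, 6 and 3 (CharmeKO 1 to 3). Markers of cardiomyocytes summed to 3.22 to 18.5 CPM with 3 of 8 found, those of endothelial cells to 1.00 to 8.14 CPM with 5 of 7 found, and those of Schwann cells to 19.4 to 32.8 CPM with 6 of 6 found. All 7 haematopoietic markers were found, at 43.7 to 183 CPM in WT and 24.7 to 391 CPM in CharmeKO. None of the markers found was at 0 in all 6 libraries. Libraries that carry the same replicate number in WT and CharmeKO deviated together from their group means and are treated as pairs where a pair is named. For number 3 this was weak, with a correlation of 0.217 across genes, against 0.222 for WT 2 with CharmeKO 3. Pair 3 is therefore not singled out by the data.

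Values below are normalised reads, that is, reads per gene divided by the size factor of the library. Levels of different genes were compared per length only, as RPKM (reads per kilobase of exon, relative to the library total). On that scale *Sfrp1* stood first of the 9 genes with a mean of 235 RPKM over the 6 libraries, rank 127 among the 19373 genes with an exon length. *Dkk3* followed with 52.6 RPKM, then *Frzb* with 10.35 RPKM and *Wnt5a* with 4.93 RPKM. *Dkk2* (0.884 RPKM), *Sfrp2* (0.394 RPKM), *Axin2* (0.283 RPKM), *Sfrp4* (0.224 RPKM) and *Lef1* (0.02625 RPKM) lay below the median gene, which had 2.01 RPKM. *Sfrp1* exceeded *Dkk3*, *Dkk3* exceeded *Frzb*, and *Wnt5a* exceeded *Dkk2*, in each of the 6 libraries. The order of *Frzb* and *Wnt5a* was not fixed, since *Wnt5a* was the higher of the pair in WT 2 and CharmeKO 3, and *Dkk2*, *Sfrp2*, *Axin2* and *Sfrp4* overlapped in their ranges.

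**Figure D1:**
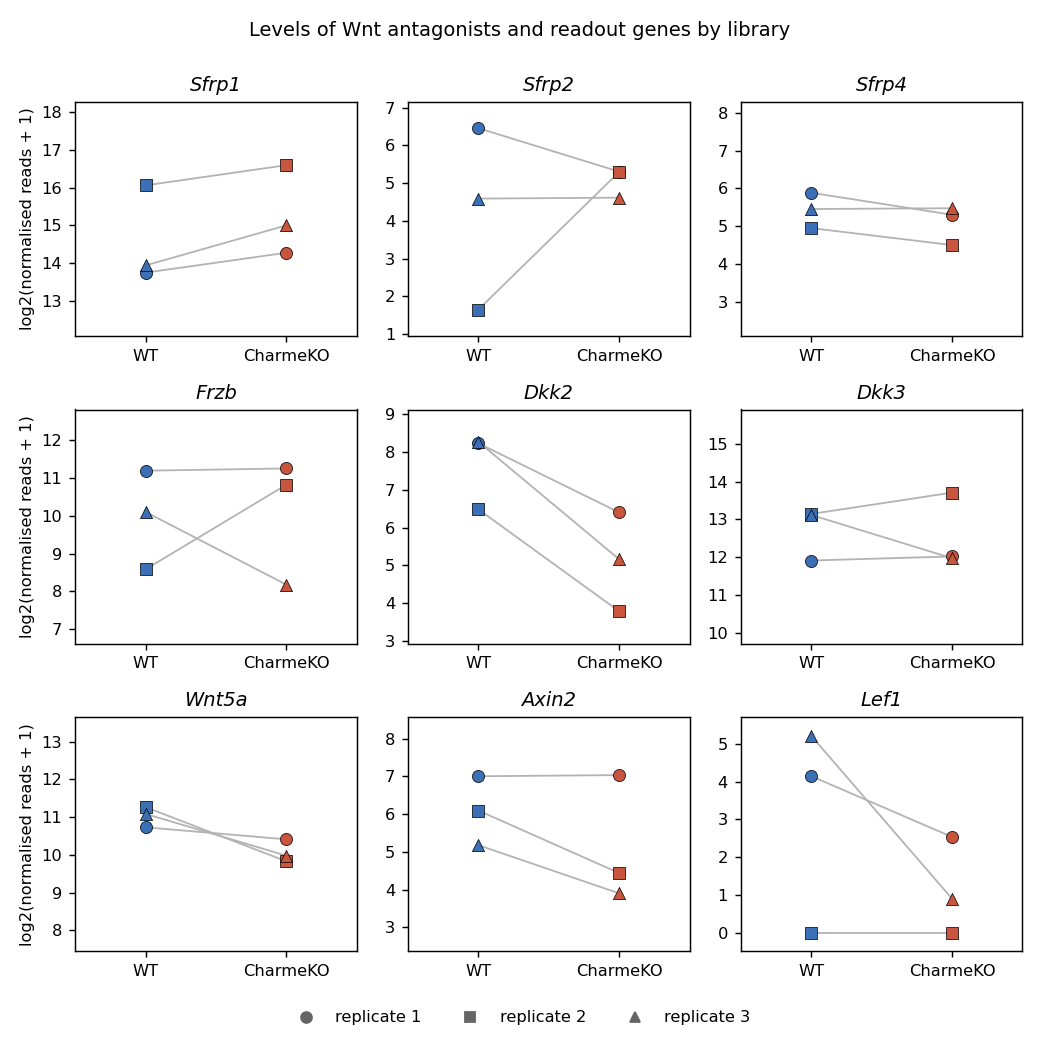
Level of each of the 9 genes in each library, as log2(normalised reads + 1) on the vertical axis, for WT (blue) and CharmeKO (red); symbols mark the replicate number and grey lines join libraries of the same number. *Dkk2* and *Wnt5a* are lower in CharmeKO in all 3 pairs and *Sfrp1* is higher in all 3, while the lines of *Sfrp2*, *Frzb* and *Dkk3* run in different directions.

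*Sfrp1* (ENSMUSG00000031548, GRCm38 chr8:23411502-23449632, plus strand), which encodes a secreted Wnt-binding protein, was the main inhibitor transcript of these cultures. It had 13784, 68383 and 15732 normalised reads in WT 1, 2 and 3 and 19865, 99149 and 32859 normalised reads in CharmeKO 1, 2 and 3. The number 2 libraries were the highest of both genotypes, the groups overlapped, and in each pair the CharmeKO library was the higher one. The CharmeKO library exceeded its WT counterpart 1.44-fold, 1.45-fold and 2.09-fold in pairs 1, 2 and 3. The group means were 32633 ± 30976 in WT and 50624 ± 42523 in CharmeKO (SD, n = 3 each), and the log2 fold change fitted by limma was 0.71 (SE 0.810). Replicate number took 87.6% of the variance of its log2 values, genotype 11.0% and the rest 1.37%. Without the replicate number the difference was therefore smaller than its standard error, and with the number as a block the standard error was 0.164. Without CharmeKO 2 the fitted log2 fold change was 0.06, and without WT 2 it was 1.45.

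*Frzb* (ENSMUSG00000027004, GRCm38 chr2:80411970-80447625, minus strand), the SFRP3 gene, had 2347, 383 and 1101 normalised reads in WT 1, 2 and 3 and 2448, 1817 and 289 normalised reads in CharmeKO 1, 2 and 3. The number 1 libraries were nearly equal, whereas the other pairs lay in opposite directions. In pair 2 the CharmeKO library was 4.74-fold the WT library, and in pair 3 the WT library was 3.81-fold the CharmeKO library. The means were 1277 ± 994 and 1518 ± 1110 (SD, n = 3 each), with a log2 fold change of 0.13 (SE 0.968) by limma. Genotype took 0.261% of its variance and replicate number 51.6%, which left 48.2% to differences between pairs that neither term describes.

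*Sfrp2* (ENSMUSG00000027996, GRCm38 chr3:83766321-83774316, plus strand) and *Sfrp4* (ENSMUSG00000021319, GRCm38 chr13:19623104-19632994, plus strand) encode the remaining SFRP proteins of the set and were weakly expressed. *Sfrp4* had 22 to 59 reads, whereas *Sfrp2* was at the lower end of detection in WT 2. Read counts of *Sfrp2* were 88, 2 and 21 for WT 1, 2 and 3, against 40, 39 and 27 for CharmeKO 1, 2 and 3. A count of 3 reads corresponds to 2.61 to 3.30 normalised reads depending on the library, so WT 2 was below it, and such limits cover counting error only. The WT libraries spread around the CharmeKO libraries on both sides. The means in normalised reads, 37.3 ± 44.0 in WT and 33.4 ± 8.61 in CharmeKO (SD, n = 3 each), and the limma log2 fold change of 0.84 (SE 1.18) differed in sign. *Sfrp4* had 58.1, 29.9 and 42.8 normalised reads in WT 1, 2 and 3 and 38.5, 21.6 and 43.5 normalised reads in CharmeKO 1, 2 and 3. The groups overlapped, with a log2 fold change of -0.34 (SE 0.486), and the number 2 library was the lowest of each genotype.

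*Dkk2* (ENSMUSG00000028031, GRCm38 chr3:132085292-132180304, plus strand) encodes a Dickkopf protein that binds LRP6 and can block or, in some settings, activate canonical signalling. By limma it had the lowest log2 fold change of the 9 genes, whereas edgeR and DESeq2 put *Lef1* lower, on few reads. Its promoter is printed because *Dkk2* is the member whose 2 groups lay furthest apart on the log2 scale without overlapping. The sequence is the 250 bases before the annotated start, chr3:132085042-132085291 on the plus strand, from RefSeq (GRCm38.p6), read 5′ to 3′ with a TATAAA match in capitals.
*Dkk2* promoter: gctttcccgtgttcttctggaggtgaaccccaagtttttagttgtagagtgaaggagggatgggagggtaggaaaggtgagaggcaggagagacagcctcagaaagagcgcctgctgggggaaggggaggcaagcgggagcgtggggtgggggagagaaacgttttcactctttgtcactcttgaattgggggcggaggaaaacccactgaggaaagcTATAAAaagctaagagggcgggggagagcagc
The capitals lie 32 to 27 bases before the start. TATAAA on either strand was present in 12.4% of the 32851 promoter windows of this length, and the match is a description of the letters. The window had 55.6% G and C and 7 CpG dinucleotides.

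*Dkk2* had 300.4, 88.6 and 309 normalised reads in WT 1, 2 and 3, against 83.6, 12.8 and 34.8 normalised reads in CharmeKO 1, 2 and 3. All 3 CharmeKO libraries were below all 3 WT libraries, but the margin between the lowest WT and the highest CharmeKO library was narrow, and number 2 was the lowest library of both genotypes. The WT library was 3.59-fold, 6.93-fold and 8.87-fold its CharmeKO counterpart in pairs 1, 2 and 3. The means were 233 ± 125 in WT and 43.7 ± 36.3 in CharmeKO (SD, n = 3 each), a 5.32-fold higher WT mean, with a limma log2 fold change of -2.55 (SE 0.809). Genotype took 63.8% of the variance and replicate number 33.4%. In bulk libraries, fewer cells that express a gene and less RNA per cell cannot be told apart.

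The 10 listed smooth muscle and pericyte markers were lower in CharmeKO along with *Dkk2*. Their summed level was 147, 230.2 and 729.9 CPM in WT 1, 2 and 3 and 128, 146 and 155 CPM in CharmeKO 1, 2 and 3. All 10 had a negative fitted log2 fold change, with a median of -1.72 and 0 called by limma. The sum in WT 1 was within the CharmeKO range. In pair 1 the sum was 147 CPM in WT and 128 CPM in CharmeKO, while *Dkk2* in WT was 3.59-fold its CharmeKO counterpart. In every library *Smtn* gave at least 47.65 CPM of the sum and *Notch3* at least 28.05 CPM. The sum can therefore hide changes of weaker markers. Within pair 1, *Actg2* of the same list dropped from 663 (WT 1) to 182 (CharmeKO 1), as normalised reads. *Actg2* is named because its profile was the nearest to that of *Dkk2*, and the other markers were not examined singly. A summed marker level cannot separate fewer smooth muscle cells or pericytes from lower expression of these genes within the fibroblasts. The part of either in the *Dkk2* values was not tested.

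*Dkk3* (ENSMUSG00000030772, GRCm38 chr7:112116017-112159057, minus strand) encodes a divergent member of the Dickkopf family that does not bind LRP6 as the others do. It had 3854, 9054 and 8904 normalised reads in WT 1, 2 and 3 and 4154, 13405 and 4022 normalised reads in CharmeKO 1, 2 and 3. The genotypes covered much the same range, and the number 1 libraries were both low. The means were 7271 ± 2960 and 7194 ± 5380 (SD, n = 3 each), with a log2 fold change of -0.16 (SE 0.564) by limma. The 2 Dickkopf genes thus differed in how they varied, with genotype taking 1.24% of the variance of *Dkk3* and replicate number 72.4%. *Dkk2* amounted to 7.07%, 0.887% and 3.14% of the *Dkk3* level per length in WT 1, 2 and 3, and to 1.83%, 0.0864% and 0.784% in CharmeKO 1, 2 and 3.

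Summed per length, the 6 inhibitor transcripts reached 121, 452 and 158 RPKM in WT 1, 2 and 3 and 153, 696 and 217 RPKM in CharmeKO 1, 2 and 3. *Sfrp1* made up 61.1%, 84.6% and 53.8% of this sum in WT and 69.0%, 83.2% and 85.1% in CharmeKO, so the sum largely followed that gene. *Dkk3* made up 13.6% to 39.6%, *Frzb* 0.641% to 14.0% and *Dkk2* 0.0127% to 1.57%. The means of the sum were 243.8 ± 181 RPKM in WT and 355.5 ± 297 RPKM in CharmeKO (SD, n = 3 each), and the groups overlapped. Without *Sfrp1* the sum was 47.2, 69.5 and 73.2 RPKM in WT 1, 2 and 3 and 47.5, 117 and 32.4 RPKM in CharmeKO 1, 2 and 3, with no common direction over the pairs.

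**Figure D2:**
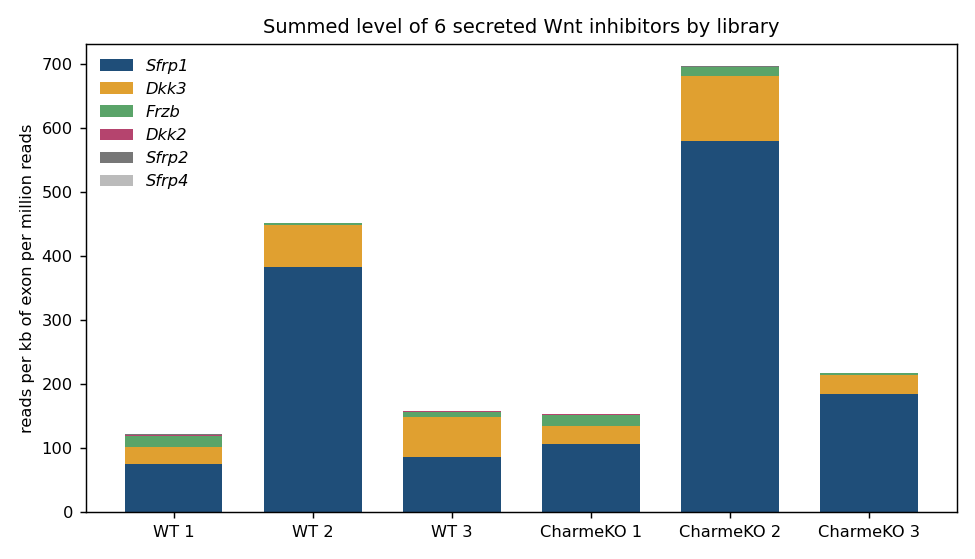
Stacked levels of the 6 inhibitor transcripts per library, in RPKM on the vertical axis. *Sfrp1* (dark blue) is the tallest part of every bar, 53.8% to 85.1% of the sum, and the number 2 libraries have the tallest bars of both genotypes.

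*Wnt5a* (ENSMUSG00000021994, GRCm38 chr14:28504750-28527448, plus strand) encodes a ligand that acts mostly through non-canonical routes, among them the receptor ROR2, and can oppose beta-catenin signalling. It had 1699.8, 2461 and 2174 normalised reads in WT 1, 2 and 3 and 1362, 909 and 1009 normalised reads in CharmeKO 1, 2 and 3. All 3 WT libraries were above all 3 CharmeKO libraries, and the pair with number 1 was the closest. The WT library was 1.25-fold, 2.71-fold and 2.16-fold its CharmeKO counterpart in pairs 1, 2 and 3. The means were 2112 ± 384 in WT and 1094 ± 238 in CharmeKO (SD, n = 3 each), a 1.93-fold higher WT mean, with a limma log2 fold change of -0.95 (SE 0.229). Of the 9 genes, *Wnt5a* had the highest share of variance taken by genotype, 80.5%, and the lowest taken by replicate number, 0.0918%. The summed smooth muscle and pericyte markers were lower in CharmeKO in all 3 pairs as *Wnt5a* was, a direction shared by 14.0% of all genes. The sum was highest in WT 3 (729.9 CPM) and *Wnt5a* in WT 2. The part of these markers in the *Wnt5a* values was not tested. Its log2 fold change stayed between -1.12 and -0.83 when each library was left out in turn.

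The ratio of *Sfrp1* to *Wnt5a* per length was looked at after the values of both genes had been seen. It was 14.5, 49.7 and 13.0 in WT 1, 2 and 3 and 26.1, 195 and 58.3 in CharmeKO 1, 2 and 3. The groups overlapped, since WT 2 exceeded CharmeKO 1, and within pairs the ratio was 1.80-fold, 3.92-fold and 4.5-fold higher in CharmeKO, which follows from the directions of the 2 genes already given. *Ror2*, the receptor gene, had 421, 1407 and 1883 normalised reads in WT 1, 2 and 3 and 503, 1642 and 580.1 normalised reads in CharmeKO 1, 2 and 3. Its pairs did not share a direction, and its log2 fold change by limma was -0.41 (SE 0.683).

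*Axin2* (ENSMUSG00000000142, GRCm38 chr11:108920349-108950783, plus strand) encodes a scaffold of the beta-catenin destruction complex and is a feedback target of the canonical pathway. Its promoter is printed because the gene serves as the Wnt readout. The sequence is the 250 bases before the annotated start, chr11:108920099-108920348 on the plus strand, from RefSeq (GRCm38.p6), read 5′ to 3′.
*Axin2* promoter: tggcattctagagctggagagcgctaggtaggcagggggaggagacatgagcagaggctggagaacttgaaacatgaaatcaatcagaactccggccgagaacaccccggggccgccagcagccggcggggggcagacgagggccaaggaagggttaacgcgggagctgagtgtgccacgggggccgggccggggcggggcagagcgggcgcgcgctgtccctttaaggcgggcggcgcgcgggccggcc
No TCF/LEF word (CTTTGAA, or the same letters with T for either or both of the final bases, on either strand) was in this window, nor was the TATA word, and no base is therefore in capitals. The TCF/LEF words were present in 14.8% of the 32851 windows, and their absence says only that these letters are not within the 250 bases. The window had 69.2% G and C and 24 CpG dinucleotides, against 7 in that of *Dkk2*. RefSeq entries were at hand for 5 of the 9 genes, and the windows of *Dkk2*, *Frzb* and *Sfrp2* held 0 TCF/LEF words, while 1 of 4 starts of *Lef1* held 1. That window, chr3:131156044-131156293, lies inside the annotated span of *Lef1*. The bases just after each *Lef1* start were not found in a GENCODE transcript of the gene, unlike those of *Axin2*, *Dkk2*, *Frzb* and *Sfrp2*.

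*Axin2* had 127, 67.3 and 35.2 normalised reads in WT 1, 2 and 3 and 129.8, 20.6 and 13.9 normalised reads in CharmeKO 1, 2 and 3. The number 1 libraries were the highest and equal within a few reads, and in the other pairs the WT library was 3.26-fold and 2.53-fold the CharmeKO library. The means were 76.5 ± 46.6 and 54.8 ± 65.0 (SD, n = 3 each), with a limma log2 fold change of -0.97 (SE 0.928), and the groups overlapped. The log2 fold change of *Axin2* was -0.49 by edgeR and by DESeq2 without the block. Replicate number took 74.8% of the variance and genotype 16.2%. The summed levels of several marker lists were likewise highest in the number 1 library of each genotype. Haematopoietic markers summed to 183, 112.7 and 43.7 CPM in WT 1, 2 and 3 and 391, 317 and 24.7 CPM in CharmeKO 1, 2 and 3. Mesothelial and epicardial markers (7 of 8 found) summed to 309.7, 39.4 and 64.8 CPM in WT and 345.0, 91.1 and 21.7 CPM in CharmeKO. The lists of endothelial markers (6.67, 4.25 and 2.91 CPM in WT, 8.14, 3.315 and 1.00 CPM in CharmeKO) and of cardiomyocyte markers (13.85, 8.45 and 3.22 CPM in WT, 18.5, 6.45 and 3.89 CPM in CharmeKO) were low throughout and lay in the same order as *Axin2*, number 1 above 2 above 3, as the haematopoietic list did. Schwann cell markers were also highest in number 1, with 28.0 CPM in WT 1 and 32.8 CPM in CharmeKO 1. The mesothelial and epicardial list did not share the full order, since WT 3 was above WT 2. Within pair 2, where *Axin2* was lower in CharmeKO, the haematopoietic, mesothelial and Schwann sums were higher in CharmeKO. The endothelial and cardiomyocyte sums were lower there. Within pair 3 the haematopoietic, mesothelial and endothelial sums were lower in CharmeKO and the cardiomyocyte and Schwann sums higher. The part of these cells in the *Axin2* values was not tested. Without CharmeKO 1 the log2 fold change of *Axin2* was -1.92, and without CharmeKO 3 it was -0.36.

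*Lef1* (ENSMUSG00000027985, GRCm38 chr3:131110471-131224356, plus strand) encodes a TCF/LEF transcription factor. Read counts were 17, 0 and 33 for WT 1, 2 and 3, against 5, 0 and 1 for CharmeKO 1, 2 and 3. Both number 2 libraries were at 0, which allows up to 3 reads in each, and the groups overlapped through WT 2. The limma log2 fold change was -1.98 (SE 1.48). Its size depended on the fit, being -1.09 by limma with a pseudocount of 8, -3.14 by edgeR and -3.23 by DESeq2. *Gm42449*, annotated on the same strand, overlaps *Lef1*, and reads shared by these genes may not have been counted for either.

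Over the 9 genes, 6 had a negative and 3 a positive log2 fold change, with a median of -0.34 against 0.00 over all genes tested. The median was -0.25 without *Lef1*, and -0.32, 0.00 and -1.15 in pairs 1, 2 and 3. By limma with Benjamini-Hochberg adjustment over the 15948 genes, 0 of the 9 were called, each with an adjusted p of 0.9999, where 0.0% of all genes were called (143 genes, or 0.897%, had an unadjusted p under 0.05, 2 of the 9 among them). With the replicate number as a block, limma called 0 of the 9 and 0.0% of all genes (unadjusted: 3 of the 9 and 5.37% of all). DESeq2 called 0 of the 9 and 0.0502% of all genes without the block, and with it 2 of the 9 and 0.401% of all genes. Those 2 were *Dkk2*, with a DESeq2 log2 fold change of -2.58 (SE 0.451) and an adjusted p of 1.341e-05, and *Sfrp1*, with 0.70 (SE 0.184) and 0.0367. For *Wnt5a* the same DESeq2 fit gave -0.96 (SE 0.279) and an adjusted p of 0.104. edgeR called 0 of the 9 and 0.0% of all genes with and without the block (unadjusted, 768 genes with it and 158 without it). The values of WT and CharmeKO did not overlap for 2 of the 9, against 4.11% of all genes; both were lower in CharmeKO, as were 1.98% of all genes, and 0 of the 9 were higher without overlap, as were 2.14%. A fitted log2 fold change of 1 or more in size was found for 2 of the 9 (*Dkk2* and *Lef1*) and for 5.04% of all genes. *Dkk2* and *Wnt5a* were lower in all 3 pairs, as were 14.0% of all genes, and *Sfrp1* was higher in all 3, as were 16.4%. Since the genes were proposed with this comparison known, nothing is read from these counts.

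**Figure D3:**
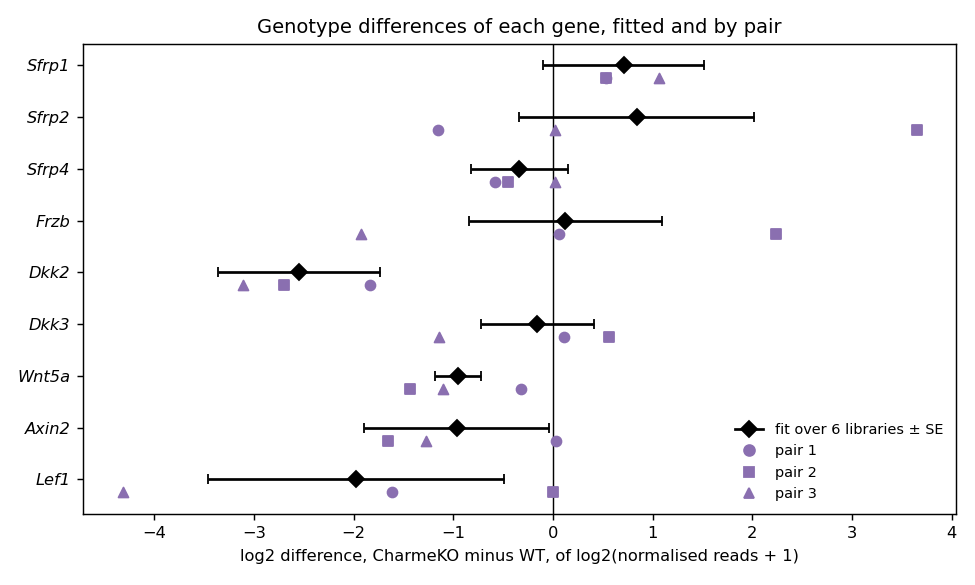
Difference between CharmeKO and WT for each gene, as a log2 difference on the horizontal axis; black diamonds with bars are the limma fit over 6 libraries ± SE, and purple symbols are the differences within pairs 1, 2 and 3. The 3 pair values of *Dkk2* (-1.83, -2.70 and -3.11) and of *Wnt5a* lie left of 0 and those of *Sfrp1* right of it.

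The 9 genes also differed in how much they varied at all. The span between the lowest and the highest library was at least 2 log2 units for 6 of them (*Sfrp1*, *Sfrp2*, *Frzb*, *Dkk2*, *Axin2* and *Lef1*), as for 24.8% of all genes, and the median span of all genes was 1.07 log2 units. Replicate number took 67.7% of the summed variance of all genes, genotype 10.6% and the rest 21.7%. Replicate number has more levels than genotype and takes a larger share even of random variation, so these shares are not on an equal footing. For the median gene the shares were 73.8%, 5.91% and 13.5%. *Sfrp1*, *Sfrp4*, *Axin2* and *Dkk3* had a replicate number share of 72.4% to 87.6%, whereas *Sfrp2* and *Frzb* had 47.8% and 48.2% of their variance outside both terms.

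**Figure D4:**
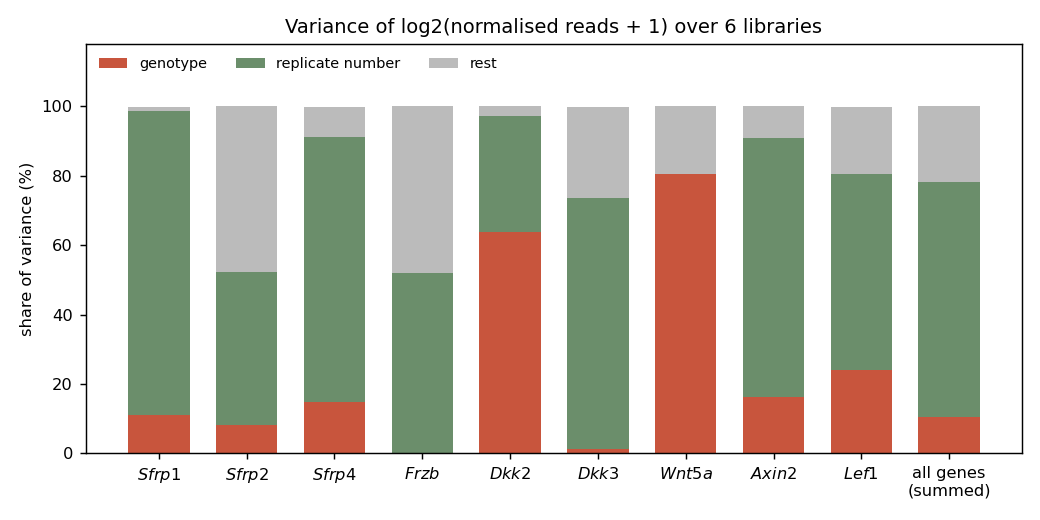
Share of the variance of log2(normalised reads + 1) over the 6 libraries, in percent on the vertical axis, taken by genotype (red), replicate number (green) and the rest (grey); the bar on the right is the sum over all genes tested. Genotype takes 80.5% for *Wnt5a* and 63.8% for *Dkk2*, against 10.6% for all genes summed.

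For the 6 genes that spanned at least 2 log2 units, the genes with the most similar mean-centred log2 profile were found by the root mean square (RMS) difference over the 6 libraries, and this likeness is a description. Nearest to *Dkk2* (whose own profile had an RMS of 1.60 log2 units) were *Actg2*, a smooth muscle actin gene, at 0.412, *H1f11-ps* at 0.463 and *Lhx2*, a LIM homeobox gene, at 0.464. *Actg2*, which is also on the smooth muscle list, had 663, 221 and 1321 normalised reads in WT 1, 2 and 3 and 182, 53.1 and 134 normalised reads in CharmeKO 1, 2 and 3, low in number 2 as was *Dkk2*. Nearest to *Sfrp1* (own RMS 1.07) were *Mettl7a1* and *Nek5*, both at 0.129, and *Cpxm1*, a carboxypeptidase-like gene, at 0.142. *Cpxm1* had 4310.5, 20516 and 4879.96 normalised reads in WT 1, 2 and 3 and 7621, 37535 and 11602 normalised reads in CharmeKO 1, 2 and 3, and shared with *Sfrp1* the high number 2 libraries. *Frzb* (own RMS 1.23) was nearest to *Asb4* at 0.193, *Sdk1* at 0.252 and *Slc13a5*, a citrate transporter gene, at 0.290. *Axin2* (own RMS 1.20) was nearest to *Syk*, a tyrosine kinase gene of immune receptor signalling, at 0.184, then *Gm35048* at 0.312 and *Gm19410* at 0.315. The profiles of *Sfrp2* (own RMS 1.48, nearest *Ano4* 0.376, *Afap1l1* 0.448 and *Aadat* 0.510) and *Lef1* (own RMS 2.02, nearest *Acan* 0.395, *Trim71* 0.563 and *Aldh1a2* 0.586) rest on few reads. Several neighbours of the other genes also had few. *Lhx2* had 0 to 11.0 normalised reads, *H1f11-ps* 0.98 to 36.4 and *Nek5* 4.92 to 54.1. *Slc13a5* had 1.74 to 29.8, *Gm35048* 2.61 to 42.3 and *Gm19410* 2.95 to 24.6 normalised reads.

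The rest of the pathway was taken from role lists of 89 genes, of which 72 had a row and 63 were tested. By limma, edgeR and DESeq2, each with and without the block, 0 of the 63 were called. Over all genes the called share was 0.0% by limma and edgeR, 0.0502% by DESeq2 and 0.401% by DESeq2 with the block. At such shares nothing is read from the absence of calls. At an unadjusted p under 0.05 limma gave 0 of the 63 without the block and 4 with it (*Apc2*, *Kremen1*, *Fzd7* and *Tle1*, all lower in all 3 pairs and each with a blocked adjusted p of 0.7997), beside 5.37% of all genes. Of the 63 genes 43 had a negative and 20 a positive log2 fold change, with a median of -0.06. Lower in all 3 pairs were 13 of them and higher in all 3 were 7, beside 14.0% and 16.4% of all genes.

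Among the Wnt ligand genes 8 were tested, with 6 positive and 2 negative log2 fold changes and a median of 0.15. *Wnt5b* had 0.39 (SE 0.623), *Wnt10b* -0.73 (SE 0.955) and *Wnt2* -1.31 (SE 1.75), all by limma. *Wnt9a*, a canonical ligand gene whose mean of 5.24 RPKM was close to that of *Wnt5a*, had 1068, 538 and 547 normalised reads in WT 1, 2 and 3 and 1101, 481 and 635 normalised reads in CharmeKO 1, 2 and 3, with the groups overlapping. The ligand secretion genes *Porcn*, which encodes the acyltransferase of Wnt proteins, and *Wls*, which encodes their carrier, had 0.15 (SE 0.892) and 0.03 (SE 0.484).

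Of 15 receptor and coreceptor genes 12 were negative and 3 positive, with a median of -0.05. The Frizzled gene *Fzd1* had 3328, 15544 and 9907 normalised reads in WT 1, 2 and 3 and 3783, 18353 and 31437 normalised reads in CharmeKO 1, 2 and 3, higher in CharmeKO within each pair as *Sfrp1* was, with 0.70 (SE 0.894). *Fzd7* and *Fzd9* had -0.29 (SE 0.380) and -0.57 (SE 0.504). In the R-spondin axis, which controls receptor turnover, 5 of 6 genes were negative, with *Lgr4* at -0.41 (SE 0.224), the ubiquitin ligase gene *Znrf3* at -0.27 (SE 0.233) and *Lgr6* at -0.80 (SE 1.03). The 3 other extracellular inhibitors tested were negative, with *Kremen1*, whose product binds DKK proteins, at -0.27 (SE 0.191), *Apcdd1* at -0.34 (SE 0.329) and *Trabd2b* at -0.19 (SE 0.548).

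Of 24 genes of the cytoplasmic and nuclear core 17 were negative, with a median of -0.10. *Apc*, a part of the destruction complex, had -0.28 (SE 0.164), its relative *Apc2* -0.66 (SE 0.405) and the corepressor gene *Tle1* -0.38 (SE 0.263). The values of WT and CharmeKO did not overlap for 3 of the 63 genes, *Lgr4*, *Apc* and *Tcf7*, beside 4.11% of all genes, and *Tcf7* is named because of this count. *Tcf7*, a relative of *Lef1*, had 62.0, 51.2 and 91.2 normalised reads in WT 1, 2 and 3 and 41.3, 42.3 and 50.4 normalised reads in CharmeKO 1, 2 and 3.

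Of the 5 other target genes tested, 4 were negative and 1 positive. *Nkd1*, a target gene and feedback inhibitor, had 421, 1868 and 414 normalised reads in WT 1, 2 and 3 and 499, 2522 and 1448 normalised reads in CharmeKO 1, 2 and 3, a log2 fold change of 0.83 (SE 0.791) opposite in sign to that of *Axin2*. *Ccn4* had -0.56 (SE 0.577) and *Myc* -0.11 (SE 0.244). The readouts *Axin2*, *Lef1* and *Nkd1* therefore did not share a direction of the fitted difference, and none of them was called.

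**Figure D5:**
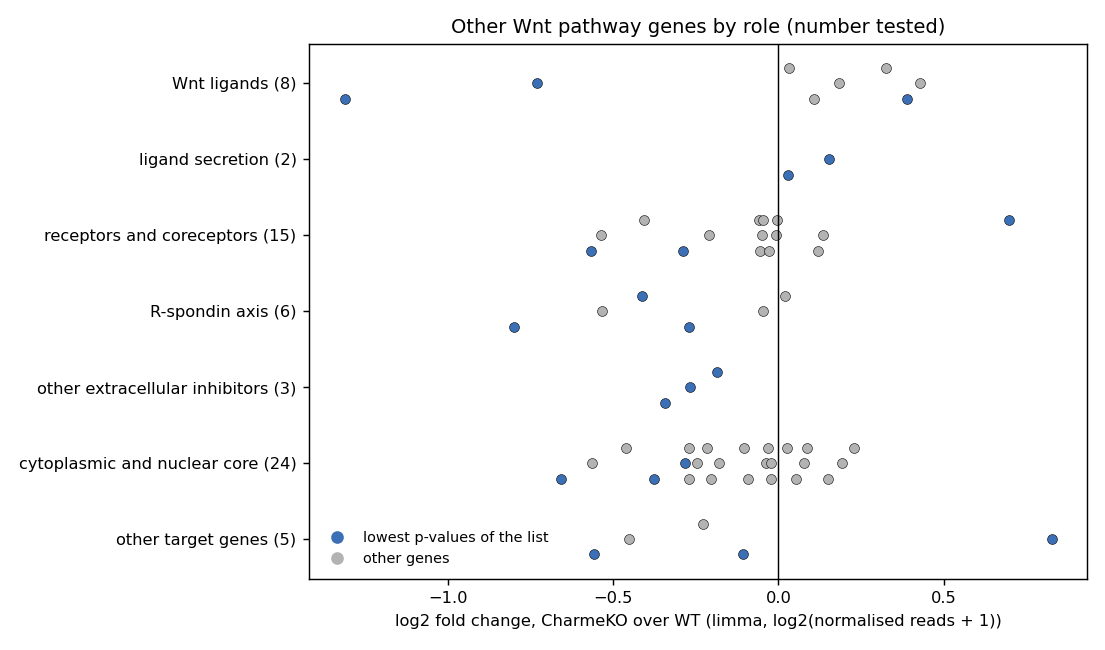
Log2 fold change (CharmeKO over WT, limma) of the 63 other Wnt pathway genes tested on the horizontal axis, grouped by role on the vertical axis with the number tested; blue points are the genes of lowest p in each list. Most points lie within 0.5 of 0, with *Nkd1* (0.83) and *Fzd1* (0.70) on the right and *Wnt2* (-1.31) on the left.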

How the data were processed

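Poly(A) RNA-seq of cultured CFs was analysed in 3 WT and 3 CharmeKO libraries, grouped by the sample titles. The authors aligned reads with STAR, counted them per gene on the reverse strand with an Ensembl annotation to which *Charme* had been added, and normalised with DESeq2. The submitters' processing notes name the builds GRCm39 and GRCh38 without a role. What the authors deposited is a read signal in which each library's gene counts were divided by its size factor. Whole reads were recovered by division for 100% of the 116676 values (tolerance 1e-06).

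The 10 genes and the pathway and marker lists were chosen with earlier results of these data known. Genotype was the single term of the main test, which covered genes that reached 10 reads in 2 or more libraries, with Benjamini-Hochberg adjustment at 0.05. Because the values were normalised and not raw counts, this test was a two-sided limma 3.58.1 fit (trended variance) of log2(value + 1). On this scale, fold changes of weakly expressed genes are compressed. edgeR 4.0.16 (quasi-likelihood) and DESeq2 1.42.0 on the recovered reads, a replicate block, other pseudocounts, other scalings, no filter and leaving out each library were alternatives (R 4.3.3). Scripts were tested on simulated data. Same-numbered libraries deviated from their group means with r = 0.762, 0.514 and 0.217 for numbers 1, 2 and 3 across genes (other pairs -0.643 to 0.222), above the minimum of 0.1, and were taken as pairs from the data, since the labels do not say what a number shares.

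Gene positions and exon lengths came from GENCODE M21 (GRCm38), matched by Ensembl ID, a build that may differ from that of the counting. Named genes were the 10 genes, up to 3 genes of lowest p per pathway list, any pathway gene called, and the 3 nearest profiles of each gene spanning at least 2 log2 units. *Ror2*, *Wnt9a*, *Tcf7*, *Wnt16*, *Wnt11*, *Rspo2*, *Rspo3*, *Nkd2* and the pathway genes below the filter were added after their values had been seen.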

Additional observations from a re-analysis of the deposited data

How the results depend on the processing

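Over all genes, every alternative run with limma or edgeR called 0 as the reported fit did, while DESeq2 called 8 genes without and 64 with the replicate block; the cause of this difference between tools was not tested. With the replicate block limma and edgeR called 0, and *Dkk2* and *Sfrp1* were the only calls among the 9 genes, both by DESeq2. Leaving out each library kept the count of calls at 0. The median log2 fold change of the 9 genes ranged from -0.62 to -0.32 over the libraries left out. *Dkk2* ranged from -3.19 (without CharmeKO 1) to -1.88 (without CharmeKO 2), *Wnt5a* from -1.12 to -0.83, *Sfrp4* from -0.58 to -0.04, *Lef1* from -3.54 to -0.93, *Axin2* from -1.92 to -0.36 and *Sfrp1* from 0.06 to 1.45, each without a change of sign. The sign turned for *Sfrp2* with edgeR (-0.15) and DESeq2 (-0.16) and without WT 2 (-0.45; range -0.45 to 1.95). It turned for *Dkk3* without WT 2 (0.05), WT 3 (0.04), CharmeKO 1 (0.12) or CharmeKO 3 (0.14; range -0.73 to 0.14), and for *Frzb* without WT 2 (-0.56), CharmeKO 1 (-0.46) or CharmeKO 2 (-0.24; range -0.56 to 1.08); the cause was not tested. No alternative called any of the 63 other pathway genes. Depth limits *Lef1* and *Sfrp2*, which had 0 to 5 reads in at least 1 library.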

Other observations

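Of the listed pathway genes, 9 had a row but too few reads for the filter (*Wnt1*, *Wnt6*, *Wnt10a*, *Rspo1*, *Lgr5*, *Dkk1*, *Notum*, *Sp5* and *Tnfrsf19*). They are named after their values had been seen. *Dkk1*, the best known Dickkopf inhibitor gene, gave counts of 3, 1 and 1 for WT 1, 2 and 3, against 2, 1 and 3 for CharmeKO 1, 2 and 3, so *Dkk2* and *Dkk3* were the Dickkopf genes seen above a few reads. *Notum*, which encodes an enzyme that removes the lipid from Wnt proteins, gave counts of 1, 2 and 2 for WT, against 5, 7 and 5 for CharmeKO. *Rspo1*, an R-spondin gene, gave 6, 8 and 8 for WT, against 9, 100 and 4 for CharmeKO 1, 2 and 3. *Wnt16*, a ligand gene that did pass the filter, gave 2, 16 and 9 for WT 1, 2 and 3, against 2, 74 and 5 for CharmeKO 1, 2 and 3. CharmeKO 2 was thus the highest library for both *Rspo1* and *Wnt16*, which were picked by their values. Not all listed ligand and R-spondin genes peaked there, as *Rspo2* was highest in WT 3, *Rspo3* in CharmeKO 1 and *Wnt11* in CharmeKO 3. *Nkd2*, a relative of *Nkd1*, had 3741, 2430.1 and 802 normalised reads in WT 1, 2 and 3 and 4639.9, 3953 and 155 normalised reads in CharmeKO 1, 2 and 3, with CharmeKO 3 the lowest library, as it was for *Frzb*.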
